A study of Mus musculus with 10 samples.

Results

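The cyclin-dependent kinase inhibitor genes of the mouse are 7 in number: the Cip/Kip genes Cdkn1a, Cdkn1b and Cdkn1c, and the INK4 genes Cdkn2a, Cdkn2b, Cdkn2c and Cdkn2d. They were taken by name as a family, though with earlier results of these data known. All 7 were found among the 38086 gene IDs that the count tables of both cell populations hold. RNA was measured by RNA-seq in cells sorted from the bone marrow of C57BL/6 mice that carried floxed Dnmt3a alleles (Dnmt3af/f), alleles that Cre recombinase can delete. Dnmt3a encodes an enzyme that places new methyl groups on DNA. KO mice carried the Mx1-Cre transgene and CTRL mice did not, so loss of Dnmt3a and presence of Cre cannot be told apart. Both genotypes received 5 intraperitoneal injections of poly(I:C), which switches on the interferon-responsive Mx1 promoter in blood cells and in other interferon-responsive tissues. All mice were 12 months old. The LSK population (lineage-negative, Sca1+, cKit+) holds stem cells and early progenitors, and the GMP population (lineage-negative, Sca1-, cKit+, CD34+, FcgR+) holds progenitors of granulocytes and monocytes. There were 3 KO and 2 CTRL libraries of each population; each is called by its genotype and label number. The labels give no other sign that the libraries came from separate animals, and every p-value therefore speaks of the spread among libraries.

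Cyclin-dependent kinases drive a cell from one phase of its division cycle to the next when bound to a cyclin partner. INK4 proteins bind Cdk4 and Cdk6 and keep D-type cyclins from activating them, which holds the retinoblastoma protein on its E2F targets and the cell before DNA replication. Cip/Kip proteins bind complexes of a cyclin and a kinase, above all those of Cdk2. In the blood system these inhibitors are known for holding stem cells in quiescence, p57 (Cdkn1c) and p27 (Cdkn1b) among them, and for restraining progenitor division, p18 (Cdkn2c) among them.

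The promoters of these genes are shown first, because the deleted enzyme methylates cytosines that stand before a guanine (CpG) and the members differ widely in how many CpG their promoters hold. RefSeq promoter windows on GRCm38.p6, each running from 250 bases before to 50 bases after an annotated start, were matched by symbol to 6 of the 7 members, with 9 windows in all; no window was used for Cdkn1c. Capitals mark every CpG, and each sequence is printed 5′ to 3′ on the strand of its gene. Cdkn2c on the minus strand has an upstream window at chr4:109666707-109667006 and a downstream one at chr4:109665323-109665622. The single Cdkn1b window, on the plus strand, is at chr6:134920151-134920450.
Cdkn2c upstream: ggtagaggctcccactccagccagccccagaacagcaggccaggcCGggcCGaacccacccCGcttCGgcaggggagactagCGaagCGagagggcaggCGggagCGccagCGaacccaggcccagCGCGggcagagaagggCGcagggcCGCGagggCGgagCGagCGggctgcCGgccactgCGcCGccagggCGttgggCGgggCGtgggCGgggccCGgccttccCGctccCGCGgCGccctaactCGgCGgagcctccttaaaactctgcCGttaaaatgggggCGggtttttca
Cdkn2c downstream: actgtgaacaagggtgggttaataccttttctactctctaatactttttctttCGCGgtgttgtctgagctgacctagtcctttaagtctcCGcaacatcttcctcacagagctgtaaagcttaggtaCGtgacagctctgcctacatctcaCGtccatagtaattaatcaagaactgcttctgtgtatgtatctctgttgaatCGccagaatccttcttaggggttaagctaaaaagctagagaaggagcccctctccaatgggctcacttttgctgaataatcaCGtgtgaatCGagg
Cdkn1b: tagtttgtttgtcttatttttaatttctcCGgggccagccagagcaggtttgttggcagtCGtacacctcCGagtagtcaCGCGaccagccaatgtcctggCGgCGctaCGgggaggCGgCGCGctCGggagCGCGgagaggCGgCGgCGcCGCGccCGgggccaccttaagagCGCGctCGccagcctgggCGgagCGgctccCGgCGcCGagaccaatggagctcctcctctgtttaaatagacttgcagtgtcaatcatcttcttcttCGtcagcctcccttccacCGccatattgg

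The upstream Cdkn2c window held 33 CpG, a number that 8.56% of the 32841 RefSeq windows reach or pass, and its downstream window held 8, which 48.7% reach or pass. The median over all windows was 7. The Cdkn1b window held 30 (11.7% of windows have at least as many), the Cdkn2d window on chromosome 9 held 22 (23.1%) and the Cdkn2b window on chromosome 4 held 18 (29.7%). Methylation of these windows was not analysed here.

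Cdkn2a has a pair of starts on the minus strand. It is known for encoding both the INK4 protein p16INK4a and, from another first exon in another reading frame, p19Arf, which acts on the p53 pathway. Its windows, at chr4:89294570-89294869 and chr4:89282143-89282442, are shown because the most CpG-rich window of the family belongs to a gene without signal.
Cdkn2a upstream: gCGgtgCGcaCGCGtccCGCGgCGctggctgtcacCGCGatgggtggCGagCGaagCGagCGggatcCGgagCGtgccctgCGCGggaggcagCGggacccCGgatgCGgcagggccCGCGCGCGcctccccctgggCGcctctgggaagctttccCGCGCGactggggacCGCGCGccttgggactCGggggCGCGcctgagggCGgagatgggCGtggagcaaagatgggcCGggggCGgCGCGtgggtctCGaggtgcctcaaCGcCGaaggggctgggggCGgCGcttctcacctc
Cdkn2a downstream: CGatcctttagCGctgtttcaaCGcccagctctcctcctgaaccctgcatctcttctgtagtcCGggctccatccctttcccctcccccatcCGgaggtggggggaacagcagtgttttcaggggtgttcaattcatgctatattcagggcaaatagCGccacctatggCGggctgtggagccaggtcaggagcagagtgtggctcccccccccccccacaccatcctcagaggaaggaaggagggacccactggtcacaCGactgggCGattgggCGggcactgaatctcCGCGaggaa

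The upstream Cdkn2a window held 45 CpG (1.93% of windows have at least as many) and the downstream window 12 (39.6%). Known regulators of the family were looked up as letters on both strands. The p53 letters searched, 2 copies of CATG with any 6 bases between them, stand in 0.713% of all windows and in 1 member window, the upstream one of Cdkn1a on the plus strand at chr17:29090729-29091028, where they are printed in capitals.
Cdkn1a upstream: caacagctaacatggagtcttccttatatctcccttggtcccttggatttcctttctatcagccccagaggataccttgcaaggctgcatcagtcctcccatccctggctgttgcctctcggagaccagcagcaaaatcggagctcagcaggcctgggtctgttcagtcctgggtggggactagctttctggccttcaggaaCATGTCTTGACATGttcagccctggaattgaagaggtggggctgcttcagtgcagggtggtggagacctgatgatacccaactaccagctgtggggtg

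This window held 2 CpG, and the downstream Cdkn1a window at chr17:29093519-29093818 held 23. The E2F letters TTTCCCGC, TTTGGCGC or TTTCGCGC stand in 1.85% of all windows and, among the members, only in the upstream window of Cdkn2a. The FOXO letters TGTTTAC stand in 3.65% of all windows and in no member window. A match is a run of letters and not a measured site.

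GMP libraries held 93850256 to 122658636 reads on genes and LSK libraries 29533371 to 30437981. Levels are given as CPM, read counts brought to a common library size by TMM over all 10 libraries. Dnmt3a was at 143 and 115 CPM in the GMP CTRL libraries and at 51.7 (KO-178), 65.9 (KO-179) and 20.5 (KO-352) in KO. LSK CTRL libraries held it at 151 and 145 CPM against 55.5, 51.2 and 57.1 in KO, so KO lay below CTRL in every library of both populations. In GMP Dnmt3a still did not pass the edgeR test after adjustment over all genes (log2 -1.50, adjusted p 0.300, rank 571 of 17290 by p). In LSK it passed (log2 -1.43, adjusted p 1.06e-04, rank 2 of 17238). Failing this test in GMP is therefore no sign that a gene was unchanged. The sort markers fitted the labels: Ly6a, the Sca1 gene, was at 0.93 to 1.97 CPM in GMP and 17.8 to 21.8 in LSK, Fcgr3 was at 326 to 415 in GMP and 17.5 to 23.9 in LSK, and Kit and Cd34 were present in all 10 libraries. Reads outside genes made 8.50% and 14.2% of listed reads in GMP CTRL and 10.3% to 16.1% in GMP KO. Judged by Xist and Y-linked genes, every GMP library was male, and the LSK libraries held 1 male in each genotype (CTRL-1326 and KO-1327). The description of GMP library KO-352 names LSK files, and the title was followed; this library had the lowest Dnmt3a level of all.

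Of the 7 inhibitor genes, 5 had enough reads to be tested. Cdkn2c, which encodes the INK4 protein p18INK4c and lies at chr4:109660876-109667189, was the member that set the genotypes apart: its KO libraries lay below its CTRL libraries in both populations. The KO mean was 65.0% below CTRL in GMP and 42.1% below in LSK. In neither population did the difference pass the edgeR test after adjustment over all genes. The other 4 tested members showed no difference between genotypes beyond the spread of the libraries, Cdkn1c and Cdkn1b stood higher in LSK than in GMP, and Cdkn2a and Cdkn2b were at or near 0 reads.

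**Figure D1:**
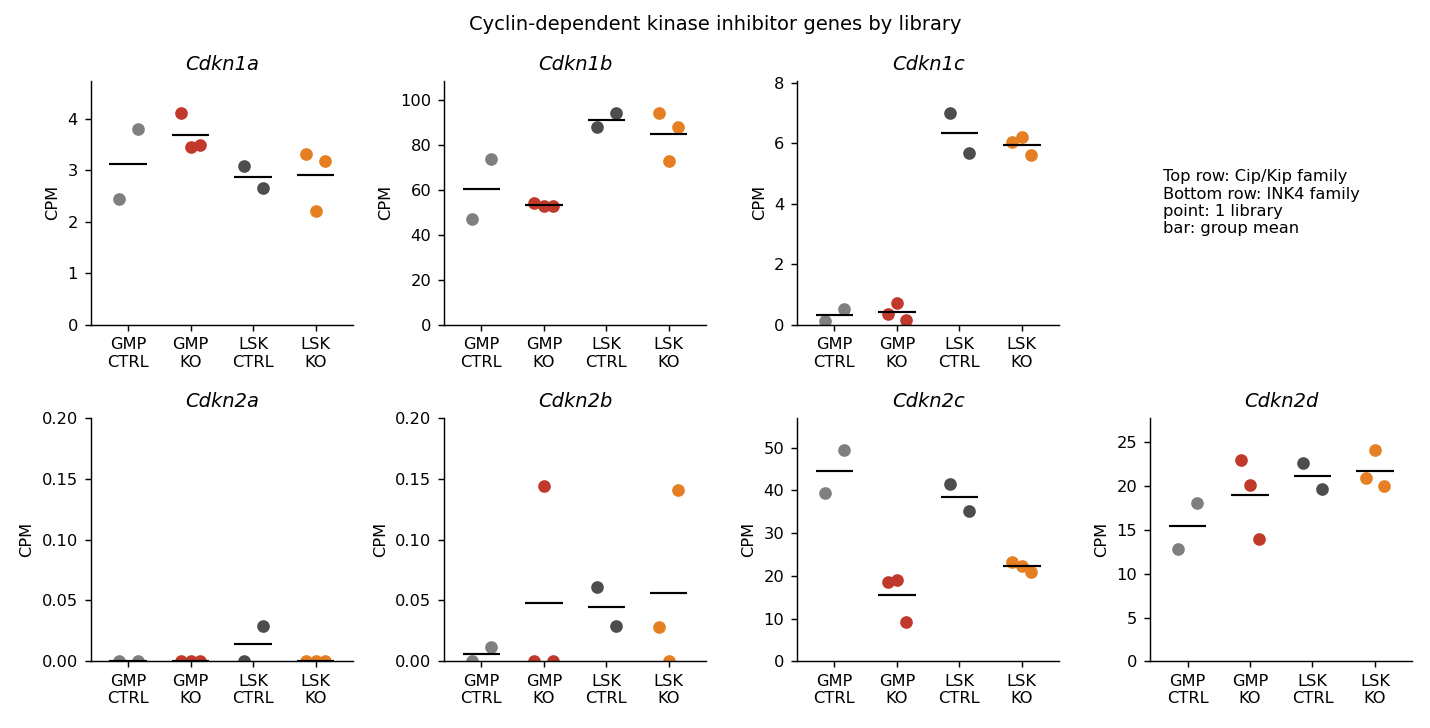
Each point is 1 library and each bar the group mean, as CPM on the vertical axis, with the 4 groups on the horizontal axis of each panel and a scale of its own for each gene. Cdkn2c is the panel in which KO lies below CTRL in both populations, from 9.14 to 19.1 against 39.3 and 49.5 in GMP and from 21.0 to 23.3 against 35.1 and 41.6 in LSK, and Cdkn1c is high in LSK alone.

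In GMP, Cdkn2c was at 39.3 CPM in CTRL-346 and 49.5 in CTRL-350. The KO libraries stood at 18.5 (KO-178), 19.1 (KO-179) and 9.14 (KO-352), all below both CTRL libraries and with KO-352 the lowest. The means were 44.4 ± 7.25 (SD, n = 2) in CTRL and 15.6 ± 5.57 (SD, n = 3) in KO. The fitted log2 fold change was -1.52 (SE 0.31, 95% interval -2.25 to -0.79), with an adjusted p of 0.258 by edgeR's quasi-likelihood test and rank 114 of 17290 genes by p. With DESeq2 on the same counts the adjusted p was 2.55e-04. It also passed in edgeR without the low-count filter (0.0406), with a covariate for reads outside genes (log2 -1.92, adjusted p 0.0107), with all 10 libraries in 1 fit (0.0353), and without KO-352 (log2 -1.25, adjusted p 0.0383). These were the 5 of 12 alternative settings that called it, and the other 7 did not.

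In LSK, Cdkn2c was at 41.6 CPM in CTRL-1326 and 35.1 in CTRL-1330. The KO libraries were at 23.3 in KO-1327, 22.3 in KO-1333 and 21.0 in KO-1334, close to each other and all below both CTRL libraries. The means were 38.3 ± 4.54 (SD, n = 2) and 22.2 ± 1.17 (SD, n = 3). The fitted log2 fold change was -0.78 (SE 0.11, 95% interval -1.03 to -0.52), with an adjusted p of 0.134 by edgeR and rank 8 of 17238 genes by p. DESeq2 gave an adjusted p of 1.12e-06 and edgeR without the filter 0.00576. These were the only 2 of 12 alternative settings that called it. The other 10 did not, the fit of all 10 libraries among them.

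In each population 1 of 5 tested members, Cdkn2c, had libraries that did not overlap and were lower in KO. Over all genes tested this held for 15.1% in GMP and 7.26% in LSK, and for 1.35% in both populations at once (204 of 15147 genes). No member was called by edgeR in either population (0 of 5), where 0.0347% of genes were called in GMP and 0.0232% in LSK. At an unadjusted p under 0.05 there was 1 member in each, Cdkn2c, beside 13.8% of genes in GMP and 2.83% in LSK. DESeq2 called 4.07% of genes in GMP and 0.116% in LSK, Cdkn2c among them in both.

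Cdkn2c was compared within subsets of like libraries. Among GMP libraries with over 12% of reads outside genes (CTRL-350, KO-178 and KO-179) the KO mean was 0.379 of the CTRL level, and among those under it (CTRL-346 and KO-352) 0.233. In LSK the ratio was 0.616 in the female libraries and 0.561 in the male ones. Since every KO library lay below every CTRL library, any such split gives a lower KO value. The ratios therefore describe size alone, and each of the 4 subsets has a single CTRL library and no test.

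The size of the difference between the populations was itself tested. The KO effect on Cdkn2c was 0.72 less negative in LSK than in GMP on the log2 scale (SE 0.37, 95% interval -0.09 to 1.54, adjusted p 0.525 by edgeR), which is within error. The mean of both effects, a contrast chosen after these values were seen, was -1.15 (SE 0.18, adjusted p 0.0772 by edgeR, where 0.0372% of genes were called). With DESeq2 its adjusted p was 1.26e-07. In edgeR it was -1.01 without KO-352 (adjusted p 9.47e-04) and -1.23 without KO-179 (adjusted p 0.0449). Only 4 of 13 alternative settings called this mean, those just named among them, and the other 9 did not. For none of the 5 tested members did the effect differ between populations after adjustment (0.0265% of all genes called, and 0 members at an unadjusted p under 0.05, as against 10.1% of genes, or by DESeq2).

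Markers of other cell types were read beside Cdkn2c. In GMP the 7 mast cell and basophil markers summed to 1132 and 3001 CPM in CTRL and to 576 to 947 in KO, with a negative log2 fold change for 7 of 7, none at 0 reads in a group, and 1 called: Hdc, histidine decarboxylase, at -1.05 (SE 0.10, adjusted p 0.0414), named after its value was seen. In LSK 0 of these 7 were positive (median -0.41, 0 called). Their LSK sums of 229 and 262 in CTRL and 188 to 259 in KO overlapped. The 6 T and NK cell markers summed to 423 and 509 in GMP CTRL and 286 to 364 in KO, nearly all of it Nkg7 (means of 465 and 326, log2 -0.53). Of the other tested ones Cd4 (0.206 and 3.10, log2 3.89, adjusted p 0.169) and Klrb1c (0.237 and 3.77, log2 3.98, adjusted p 0.279) were higher in every KO library (share over all genes not reported here). In the list 3 of 5 were positive with a median of 0.87 and 0 called, and Cd3e was at 0 reads in GMP CTRL. The 8 mature neutrophil markers were positive in 8 of 8 in GMP (median 0.76, 0 called), though their sums of 1055 and 2596 in CTRL and 666 to 5031 in KO overlapped. Of the 7 GMP markers 1 was positive in GMP (median -0.40, 0 called), with sums of 19877 and 25864 in CTRL and 15817 to 21777 in KO. The 6 B cell markers were positive in 0 of 5 tested in GMP (median -0.99) and in 6 of 6 in LSK (median 0.59), with 0 called and sums that overlapped in both (42.1 and 43.0 in CTRL and 36.4 to 48.4 in KO of GMP, 45.9 and 63.2 in CTRL and 53.7 to 91.2 in KO of LSK). In LSK the 7 monocyte and dendritic markers summed to 353 and 516 CPM in CTRL and 219 to 315 in KO (0 of 7 positive, 0 called). The 6 stromal and endothelial markers summed there to 148 and 158 in CTRL and 136 to 140 in KO (1 of 6 positive, 0 called). Most of that sum was Pecam1 (means of 128 and 120, log2 -0.08), whose CTRL and KO libraries overlapped. The part of these markers in the Cdkn2c values was not tested, and in sorted bulk samples fewer cells of a type and less RNA per cell cannot be told apart.

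The genes whose levels followed Cdkn2c most closely over the 10 libraries, after each population's mean was removed from log2 CPM, were Smpdl3a (Pearson r 0.958), Layn (0.945) and Dnmt3a itself (0.945), out of 10661 genes with at least 1 CPM in every group. Smpdl3a had means of 137 CPM in GMP CTRL and 114 in GMP KO, and 85.4 and 75.5 in LSK. Layn had means of 10.7 and 5.18 in GMP and 10.2 and 7.79 in LSK. All 3 were lower in KO than in CTRL in both populations, so the gap between genotypes enters these values of r. A relation within a genotype was not tested.

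**Figure D2:**
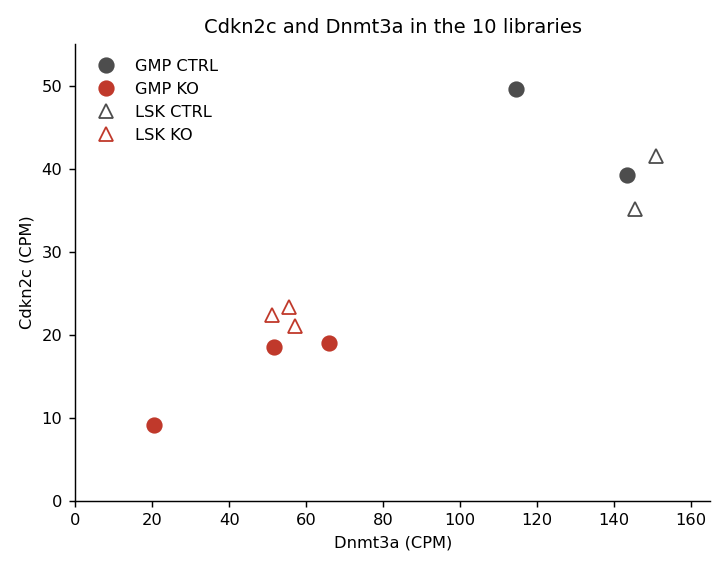
Each symbol is 1 library, with Dnmt3a CPM on the horizontal and Cdkn2c CPM on the vertical axis. The 4 CTRL libraries stand at the upper right and the 6 KO libraries at the lower left, with GMP KO-352 at 20.5 CPM of Dnmt3a and 9.14 of Cdkn2c lowest on both axes.

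Cdkn2d encodes p19INK4d, the other INK4 protein with signal, and lies at chr9:21288410-21291407. In GMP it was at 12.8 and 18.1 CPM in CTRL and at 23.0 (KO-178), 20.2 (KO-179) and 14.0 (KO-352) in KO. The ranges overlapped, with KO-352 below CTRL-350. The log2 fold change was 0.29 (SE 0.25, 95% interval -0.30 to 0.89, adjusted p 0.614). In LSK it was at 22.7 and 19.7 in CTRL and 20.9, 24.2 and 20.0 in KO, which also overlapped, with a log2 fold change of 0.04 (SE 0.13, interval -0.24 to 0.33). The intervals allow a change of at most 0.33 in LSK on the log2 scale, and a wider one in GMP. Diaph3 (r 0.965), E2f2 (0.952) and Aqp9 (0.944) followed it most closely over the libraries.

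Cdkn2a was counted at 0 reads in all 5 GMP libraries and in 4 of 5 LSK libraries, with 1 read in CTRL-1330. A count of 0 allows up to 3 reads over a group, which is 0.0182 CPM in GMP CTRL, 0.0105 in GMP KO and 0.0290 in LSK KO, counting error only. Cdkn2b, which encodes p15INK4b and neighbours Cdkn2a, was at 0 and 1 reads in GMP CTRL and at 0 (KO-178), 16 (KO-179) and 0 (KO-352) in KO. In LSK it had 2 and 1 reads in CTRL and 1, 0 and 5 in KO. The 16 reads of KO-179 were the most in any library and were not shared by the other GMP KO libraries. Neither gene passed the low-count filter in any comparison, and no fold is given. Of the genes that flank the pair, Mtap, a methionine salvage enzyme, was at 73.2 CPM in GMP CTRL and 78.7 in GMP KO, and at 69.9 and 80.7 in LSK (log2 0.09, adjusted p 0.777, and 0.21, adjusted p 0.9998). Dmrta1 had at most 4 reads in a group and was not tested.

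Among the Cip/Kip genes, Cdkn1b (p27) was the most abundant. Lying at chr6:134920401-134925513, it was at 46.9 and 73.7 CPM in GMP CTRL and at 54.3, 52.8 and 52.9 in GMP KO. The KO libraries were alike and fell between the CTRL libraries. In LSK it was at 88.0 and 94.3 in CTRL and at 94.2, 72.7 and 88.0 in KO, again overlapping. The log2 fold changes were -0.19 (SE 0.18, 95% interval -0.61 to 0.23, adjusted p 0.647) in GMP and -0.09 (SE 0.11, interval -0.35 to 0.17, adjusted p 0.9998) in LSK. Chd3 (r 0.972) and Brd2 (0.948) followed it most closely.

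Cdkn1a encodes p21, the inhibitor known as a target of p53, and lies at chr17:29090976-29100727, where the annotation has a further gene on the opposite strand that neither table lists. If strand was ignored in counting, reads of that gene would count for Cdkn1a; the p53 letters printed above stand at its upstream start. It was at 2.45 and 3.80 CPM in GMP CTRL and at 4.12, 3.45 and 3.50 in GMP KO. In LSK it was at 3.08 and 2.66 in CTRL and at 3.31, 2.21 and 3.19 in KO. Genotypes overlapped in both populations, with log2 fold changes of 0.23 (SE 0.28, 95% interval -0.43 to 0.89) and 0.03 (SE 0.26, interval -0.56 to 0.62). Of 15 p53 targets 0 were called in either population by edgeR or DESeq2 and 3 had an unadjusted p under 0.05 in GMP. Those 3 went in both directions: Bbc3 (Puma) was at a mean of 1.001 CPM in CTRL and 0.431 in KO, Pmaip1 (Noxa) at 4.26 and 9.52, and Zmat3 had a log2 fold change of 0.89. In LSK the members with the smallest p were Fas, a death receptor (log2 -0.68), and Pmaip1 (-0.64), and 0 of the 15 had an unadjusted p under 0.05. Elmo3 (r 0.952), Hjurp (0.916) and Mospd2 (0.896) followed Cdkn1a most closely.

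Cdkn1c encodes p57, is imprinted and lies at chr7:143458339-143461050, also with an unlisted antisense gene opposite it, so the same doubt holds for its counts. In GMP it was near the lower end of detection, at 0.11 and 0.53 CPM in CTRL (9 and 44 reads) and at 0.37, 0.71 and 0.16 in KO (33, 79 and 14 reads). In LSK it was at 7.003 and 5.66 in CTRL and at 6.03, 6.21 and 5.61 in KO. Genotypes overlapped in both, with log2 fold changes of 0.37 (SE 0.84, 95% interval -1.61 to 2.36) in GMP and -0.08 (SE 0.17, interval -0.47 to 0.30) in LSK. The GMP interval is wide enough to leave changes of several fold in either direction undetected, given the spread between these libraries.

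**Figure D3:**
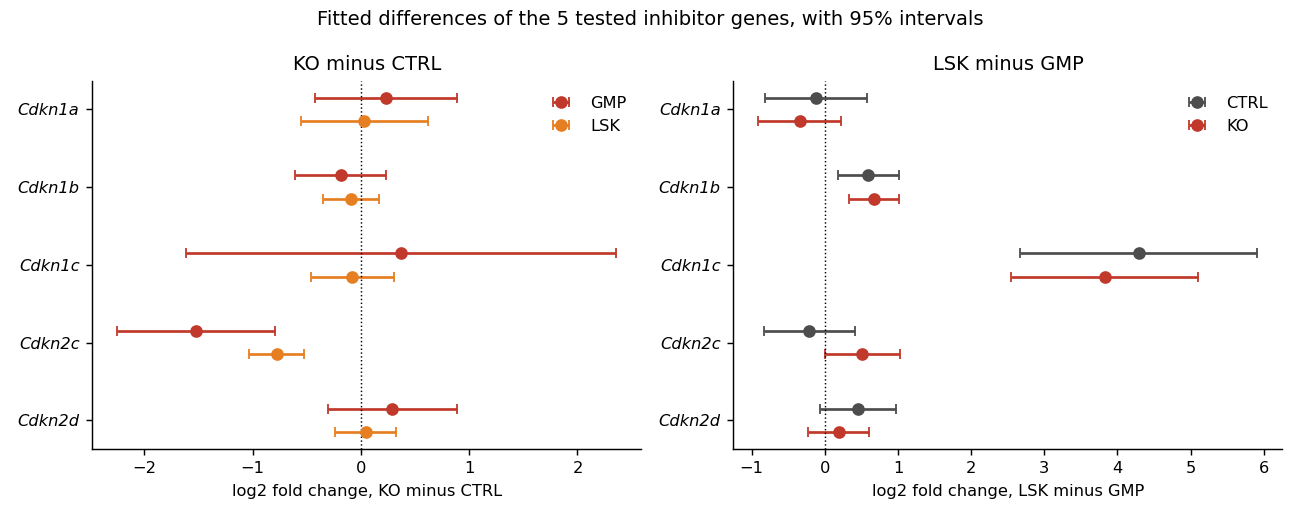
Points are fitted log2 fold changes of the 5 tested members with 95% intervals, KO minus CTRL on the left and LSK minus GMP on the right. On the left only the intervals of Cdkn2c (-2.25 to -0.79 in GMP, -1.03 to -0.52 in LSK) leave out 0, and on the right those of Cdkn1b and Cdkn1c do.

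The family was then compared between the populations within each genotype. The populations also differ in depth, count table and, in part, sex, so cell type and table cannot be told apart here. Cdkn1c was higher in LSK than in GMP by a log2 fold change of 4.29 (SE 0.73, adjusted p 6.55e-04) in CTRL, a 19.7-fold ratio of means, and by 3.82 (SE 0.58, adjusted p 2.25e-04) in KO, a 14.4-fold ratio. Cdkn1b was higher by 0.60 (SE 0.19, adjusted p 0.0204) in CTRL and by 0.67 (SE 0.15, adjusted p 0.00324) in KO. The CTRL call was lost without GMP CTRL-346 (0.33, adjusted p 0.132), without LSK CTRL-1326 (0.64, 0.0515) and without LSK CTRL-1330 (0.54, 0.0939). In each genotype 2 of 5 tested members were called higher and 0 lower, where 28.2% of all genes were called higher and 27.3% lower in CTRL, and 30.7% and 30.1% in KO. With total counts as library sizes, 42.0% of genes were called higher and 15.3% lower in CTRL, and 44.7% and 18.5% in KO.

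Cdkn2c was alike in the CTRL libraries of both populations (log2 -0.21, SE 0.28, adjusted p 0.543, positive at 0.19 with total counts as library sizes). In KO it was higher in every LSK library than in any GMP library (so were 35.4% of genes), by 0.51 on the log2 scale (SE 0.23, adjusted p 0.0789). DESeq2 called that difference (adjusted p 0.0366), as did edgeR without KO-178 (0.67, 0.0496), without KO-179 (0.71, 0.0273) and with total counts (0.89, 0.0110). These were the 4 of 11 alternative settings that called it, and the other 7 did not. Over all 11 the log2 value ran from 0.27 to 0.89. Cdkn2d differed by 0.45 in CTRL (SE 0.23, adjusted p 0.124) and 0.19 in KO (SE 0.19, adjusted p 0.413), and Cdkn1a by -0.12 (adjusted p 0.753) and -0.34 (0.262). The scaling matters for these: total counts in place of TMM moved the median of all genes by 0.41 in CTRL and 0.38 in KO. With total counts Cdkn2d was called, at 0.86 in CTRL (adjusted p 0.0152) and 0.56 in KO (0.0343), and Cdkn1a turned positive, at 0.28 and 0.04. Cdkn2d was also called in CTRL without GMP CTRL-350 (0.69, adjusted p 0.0444).

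Levels of different members were set against each other per kilobase of exon. In GMP CTRL the order was Cdkn2c (16.5 CPM per kb), Cdkn1b (13.3) and Cdkn2d (9.84), where the libraries of each neighbouring pair overlapped, followed at a distance by Cdkn1a (0.88) and Cdkn1c (0.16). In GMP KO it was Cdkn2d (12.1), Cdkn1b (11.7) and Cdkn2c (5.79). The first pair overlapped there, and Cdkn2c stood below both in every library. In LSK CTRL the order was Cdkn1b (20.0), Cdkn2c (14.3), Cdkn2d (13.4), Cdkn1c (3.11) and Cdkn1a (0.81), with overlap between Cdkn2c and Cdkn2d only. In LSK KO Cdkn1b (18.7) and Cdkn2d (13.8) stood above Cdkn2c (8.27), without overlap between any of these 3. Cdkn2c thus went from the first place to the third in GMP and from the second to the third in LSK.

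The partners and targets of the inhibitors were read from lists of other genes in the same fits. Among the 5 INK4 partners (Cdk4, Cdk6 and the 3 D-type cyclins) 0 were called between genotypes by edgeR in either population, and the median log2 fold change was 0.12 in GMP and 0.01 in LSK, against 0.01 and 0.00 over all genes. The smallest p in GMP belonged to Ccnd3, at 93.5 and 86.0 CPM in CTRL and 68.9, 52.7 and 65.9 in KO (log2 -0.54, SE 0.14, adjusted p 0.278), which DESeq2 called (adjusted p 0.0325). Next was Cdk6, at 462 and 418 in CTRL and 615, 563 and 497 in KO (log2 0.33, SE 0.13, adjusted p 0.348). Both sets did not overlap in GMP, with Ccnd3 lower and Cdk6 higher in KO, and in LSK both overlapped. Of all genes in GMP 15.1% were lower in KO without overlap, and the share that were higher is not reported here. In LSK the smallest p were those of Ccnd1 (log2 0.26) and Ccnd3 (0.10), neither of them under 0.05 before adjustment.

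Of the 8 Cip/Kip partners 7 were tested and 0 called between genotypes, with medians of -0.09 in GMP and 0.03 in LSK. Ccne1, a cyclin that activates Cdk2, had the smallest p in both, at means of 24.0 and 31.5 CPM in GMP CTRL and KO (log2 0.38, adjusted p 0.348) and 14.2 and 16.3 in LSK. Ccnb2 came next, at -0.19 and -0.10. Of the 13 pocket protein and E2F genes 0 were called, with medians of 0.01 and 0.06; E2f1 had log2 fold changes of -0.23 in GMP and 0.35 in LSK, E2f2 0.37 in GMP and Tfdp2 -0.18 in LSK.

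Of the 13 known regulators of inhibitor genes 0 were called by edgeR, with medians of 0.02 and 0.01, and 6 had an unadjusted p under 0.05 in GMP. Myc, which represses several inhibitor genes, was at 145 and 131 CPM in GMP CTRL and at 244, 210 and 204 in KO (log2 0.66, SE 0.13, adjusted p 0.258; DESeq2 8.10e-04). Gfi1, a repressor that restrains stem cell division, was at 169 and 163 in CTRL and 237, 229 and 222 in KO (log2 0.45, SE 0.10, adjusted p 0.264; DESeq2 0.00220). Both were higher in every GMP KO library, a pattern whose share over all genes is not reported here. In LSK the smallest p were those of Gfi1 (0.22, SE 0.10) and the TGF-beta receptor Tgfbr2 (-0.16, SE 0.12), with an adjusted p of 0.9998 each.

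Of the 9 genes for inhibitor protein turnover 0 were called, with medians of -0.11 and -0.00. Skp2, which marks p27 for destruction, was at 70.8 ± 7.6 (SD, n = 2) in GMP CTRL and 49.9 ± 13.3 (SD, n = 3) in KO (log2 -0.52, adjusted p 0.355), and its partner Cks1b at means of 134 and 106 (log2 -0.36, adjusted p 0.348). In LSK Skp2 (0.10) and Cul1 (0.08) had the smallest p. Of 14 Polycomb genes, whose complexes are known for silencing Cdkn2a, 0 were called, with medians of -0.02 and 0.03. In GMP Cbx8 had a log2 fold change of -0.92 (SE 0.32, adjusted p 0.331) and Ring1 of -0.32, and in LSK Pcgf2 had 0.44 and Phc1 -0.14.

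Of 22 proliferation genes 0 were called by edgeR. In GMP 18 had a negative log2 fold change, the median was -0.21, and their summed level was 9519 and 9837 CPM in CTRL and 8297 to 8711 in KO. In LSK 18 were positive, the median was 0.05, and the sums of 5812 and 6555 in CTRL and 6188 to 6742 in KO overlapped. Plk1, a mitotic kinase, was at means of 54.5 and 40.5 in GMP (log2 -0.44, adjusted p 0.278; DESeq2 0.0254), Mcm5 had -0.55 there, and Rrm2 (0.18) and Mcm4 (0.14) had the smallest p in LSK. In GMP the proliferation sum was thus lower in each KO library than in either CTRL library, a separation that 15.1% of single genes also showed. A relation to Cdkn2c was not tested.

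At an unadjusted p under 0.05 there were, in GMP, 2 of 5 INK4 partners, 1 of 7 Cip/Kip partners, 0 of 13 pocket protein and E2F genes, 6 of 13 regulators, 2 of 9 turnover genes, 1 of 14 Polycomb genes, 3 of 15 p53 targets and 4 of 22 proliferation genes, beside 13.8% of all genes. In LSK E2f1 was the only gene of these lists with such a p.

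**Figure D4:**
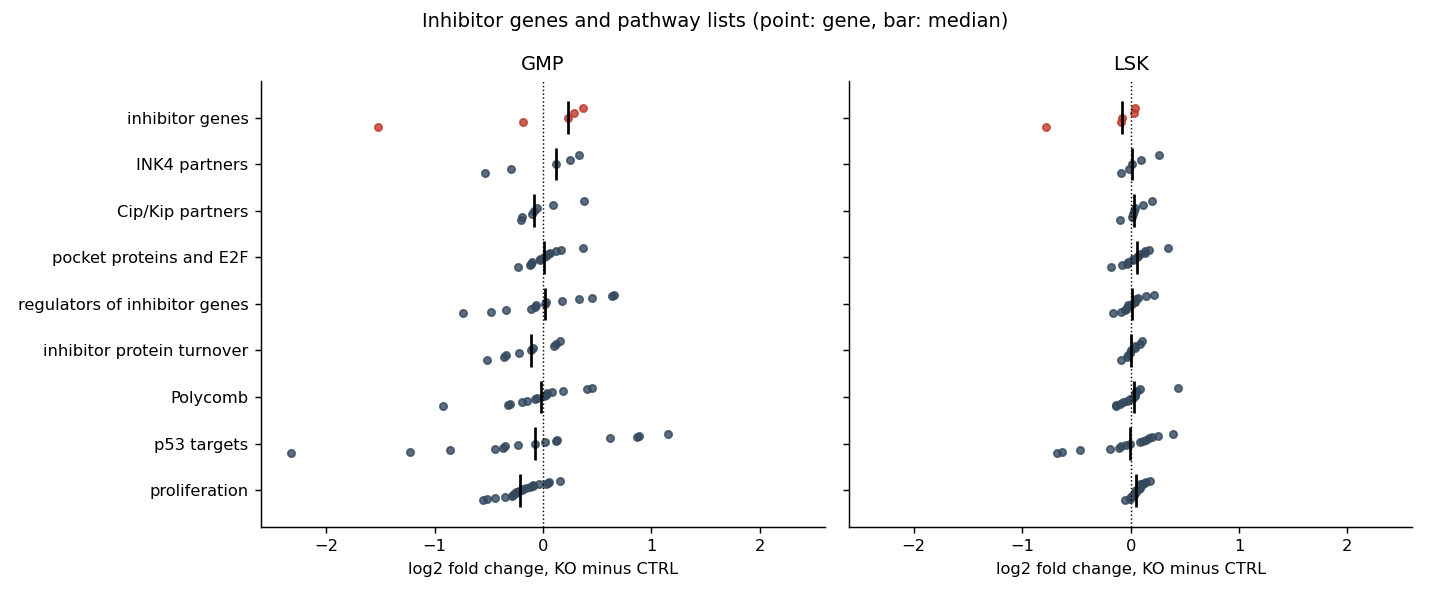
Each point is the fitted log2 fold change of 1 gene, KO minus CTRL, and each bar the median of its list, for GMP on the left and LSK on the right. Cdkn2c, at -1.52 in GMP and -0.78 in LSK, is the leftmost inhibitor gene in both panels, and the list medians lie from -0.21 to 0.23 in GMP and from -0.08 to 0.06 in LSK.

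The partners were also compared between the populations. Over all genes 28.2% were called higher in LSK and 27.3% lower in CTRL, and 30.7% and 30.1% in KO. With total counts these shares were 42.0% and 15.3% in CTRL, and 44.7% and 18.5% in KO. All 7 tested Cip/Kip partners were called lower in LSK than in GMP in both genotypes, with medians of -0.97 in CTRL and -0.92 in KO; with total counts 4 in CTRL and 5 in KO were still called lower and Cdk2 turned positive. Ccna2 was at means of 330 CPM in GMP CTRL and 166 in LSK CTRL (log2 -0.99, adjusted p 3.37e-05), Ccne2 at 112 and 38.3 (-1.55), and in KO Cdk1 was at 234 and 127 (-0.88). Of the 5 INK4 partners Cdk6 (440 and 1202 CPM in CTRL, log2 1.45, adjusted p 6.37e-06) and Ccnd1 (23.9 and 35.7, log2 0.58, adjusted p 0.0262) were called higher in LSK in CTRL. In KO these were joined by Ccnd3 (62.5 and 101, log2 0.69, adjusted p 3.31e-04), and none was called lower by edgeR. Cdk4 was at -0.44 in CTRL (adjusted p 0.0592), which DESeq2 called lower (0.0468), and whether the partner families differ was not tested. Of 22 proliferation genes 17 were called lower in LSK in each genotype, where Aurkb (-1.01 in CTRL), Bub1 (-0.99 in CTRL) and Rrm2 (-1.23 in KO) had the smallest p, and in KO Plk1 was called higher (0.25). With total counts 9 in CTRL and 4 in KO were called lower, and 0 and 2 higher.

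Among the regulators 8 of 13 were called higher in LSK in each genotype, led by Foxo3, a transcription factor known for activating Cdkn1b, at 127 CPM in GMP CTRL and 345.5 in LSK CTRL (log2 1.44, adjusted p 8.65e-06). Gfi1 was lower in LSK, at 166 and 43.3 in CTRL (log2 -1.94) and 229 and 50.05 in KO (-2.19), and in CTRL Foxo4 was lower too (-0.59), a call lost with total counts (-0.18, adjusted p 0.473), where 11 regulators in CTRL and 12 in KO were called higher. Of 13 pocket protein and E2F genes 5 were called higher in CTRL (E2f4, E2f5, E2f6, E2f7 and Tfdp2) and 6 in KO, and 3 lower in both (Rb1, E2f1 and Tfdp1); with total counts 8 were higher in each genotype and E2f1 lost its call in KO. Tfdp1, an E2F partner, was at means of 370 and 154 in CTRL (-1.26). Of 9 turnover genes 6 were called lower in CTRL and 5 in KO, led by Cks1b (-1.12 in CTRL) and Cul1 (-0.59 in KO), and Rnf123 was higher in both, with Fbxo31 in KO. The lean towards lower turnover genes depends on the scaling, since total counts gave 3 higher and 3 lower in CTRL and 3 higher and 2 lower in KO. Of 14 Polycomb genes 5 and 7 were higher in CTRL and KO, led by Phc1 (2.02 in CTRL) and Cbx2 (2.08 in KO), and Suz12, Ezh2 and Rnf2 were lower in both. With total counts Rnf2 in both genotypes, and Ezh2 in CTRL, turned positive, and 8 Polycomb genes in CTRL and 10 in KO were called higher and 2 lower in each. Of 15 p53 targets 5 were higher in both, led by Trp53inp1 (3.04 in CTRL) and Bbc3 (2.93 in CTRL), with Phlda3, Zmat3 and Gdf15; 3 were lower in CTRL (Ei24, Bax and Ccng1) and 4 in KO (Ei24, Bax, Pmaip1 and Fas). With total counts 0 p53 targets were called lower in CTRL (Ei24 at adjusted p 0.0645, Bax 0.122, Ccng1 0.555), and in KO Bax lost its call (0.641). Beside all these list counts, 28.2% of all genes were called higher and 27.3% lower in CTRL, and 30.7% and 30.1% in KO. Total counts gave 42.0% and 15.3% in CTRL, and 44.7% and 18.5% in KO. Whether any list departs from these shares was not tested.

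The imprinted domain around Cdkn1c was read gene by gene, with 9 of its 10 listed neighbours in both tables. Phlda2, a growth-restraining imprinted gene beside Cdkn1c, had 4 reads in GMP CTRL and 5 in GMP KO against 124 and 138 in LSK, and Slc22a18 was at 1.32 and 1.179 CPM in GMP and 5.06 and 4.75 in LSK (CTRL log2 1.93, adjusted p 3.80e-04; KO log2 2.01, adjusted p 5.35e-05). These 2 were called higher in LSK in both genotypes, as Cdkn1c was. Igf2 had 1 and 2 reads in GMP against 12 and 27 in LSK, called in both, and H19 5 and 12 against 7 and 33, called in KO. Kcnq1 (82 and 163 reads in GMP, 5 and 4 in LSK) and Nap1l4 (log2 -0.52 in CTRL, -0.36 in KO) were lower in LSK, though with total counts Nap1l4 lost its call in CTRL (-0.10, adjusted p 0.315) and turned positive in KO, at 0.02. Cd81, Tssc4 and Ascl2 were not called between populations, at -0.19, -0.57 and -1.98 in CTRL. Of the 9 neighbours 3 were thus called higher in LSK and 2 lower in CTRL, beside 28.2% and 27.3% of all genes. In KO 4 were called higher and 2 lower, beside 30.7% and 30.1%. With total counts 4 were higher and 1 lower in CTRL (all genes 42.0% and 15.3%), and 5 and 1 in KO (44.7% and 18.5%). Whether the domain departs from these shares was not tested.

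Between genotypes none of these neighbours was called by edgeR or DESeq2 (6 tested in GMP and 7 in LSK, 0 with an unadjusted p under 0.05). In GMP the log2 fold changes ran from -0.40 (Tssc4) to 0.19 (Kcnq1), with -0.25 for Cd81, whose 3 KO libraries lay below CTRL, as for 15.1% of all genes. In LSK they ran from -0.45 (Phlda2) to 1.59 (H19, at 0.11 and 0.32 CPM).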

How the data were processed

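RNA-seq of total RNA was made from 10 sorted samples, 3 KO and 2 CTRL of GMP and of LSK, with a strand-marking kit for total RNA depleted of ribosomal RNA, per the labels' protocols. The deposited tables used here hold raw counts of reads per Ensembl gene, 38924 genes in GMP and 45513 in LSK, as the authors made them. Tools named in the submitters' processing notes are STAR, DESeq2 1.4.5, DESeq 1.18.0 and HTSeq 0.5.3p3, and the builds named there are GRCm38 and mm10. The role of each tool, the annotation release and any use of strand were not given in the sources used. The deposited normalized tables were not used. Lines of totals in the GMP table that name no gene entered neither library sizes nor tests, namely reads outside genes (8.50% to 16.1%), ambiguous reads (1.14% to 1.32%) and reads aligned to several places (26.3% to 29.0%).

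Counts were tested with edgeR 4.0.16 in R 4.3.3: filterByExpr with a minimum count of 10, TMM normalization, glmQLFit and glmQLFTest, two-sided, Benjamini-Hochberg adjustment over all genes tested, threshold 0.05. KO against CTRL was fitted in each population alone, with TMM of its own; comparisons between populations came from 1 fit of all 10 libraries over the gene IDs in both tables. CPM levels are all on the scale of that second fit, and log2 fold changes between genotypes on that of the first. Intervals are 95%. On simulated counts the edgeR test recovered 78% of genes changed by 1 on the log2 scale and 99% of those changed by 2 in GMP (16833 genes), 94% and 100% in LSK (16886 genes), 70% and 99% for LSK against GMP in CTRL (17909 genes), 95% and 100% in KO (17889 genes), and 54% and 98% for the difference of KO effects (17949 genes). The simulated spread followed the trend over genes, without a spread particular to each gene, and only genes above a minimum level were changed. The shares therefore do not give the power for the measured genes. In the measured GMP libraries Dnmt3a at log2 -1.50 and Cdkn2c at -1.52 were not called. Alternatives were DESeq2 1.42.0, limma 3.58.1 (voom), median-ratio size factors, no filter, covariates for sex and for reads outside genes, 1 fit of all groups, no mitochondrially encoded genes, and each library left out; total counts as library sizes and the mean of both KO effects were added after seeing the data. Floors for 0 reads are 3 counts over a group and cover only counting error: without molecular identifiers, reads are not independent molecules.

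Coordinates and exon lengths are from GENCODE on GRCm38, 1-based, and promoter windows from RefSeq on GRCm38.p6. By that annotation a gene on the opposite strand overlaps Cdkn1a and another Cdkn1c, and neither is listed in the tables. The 7 members and all lists were chosen with earlier results of these data known. Genes named from a list are the up to 2 with the smallest p in each comparison, all genes called between genotypes and all of the Cdkn1c domain and Cdkn2a-Cdkn2b neighbours; others named are counts of 5 or fewer, named after their values were seen. Kcnq1ot1 was not analysed here. Genes most like a member are the 3 with the highest Pearson r; a few genes that these rules reach are not reported here. Marker sums of lists not named in the report were, in CPM for GMP CTRL, GMP KO, LSK CTRL and LSK KO libraries: stem cell (10 genes) 52.0 to 59.9, 47.7 to 66.6, 782 to 922 and 809 to 873; erythroid (6 genes) 3.70 to 18.9, 10.8 to 57.6, 226 to 267 and 207 to 236; megakaryocyte (5 genes) 61.2 to 124, 41.5 to 117, 261 to 361 and 248 to 302.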

Additional observations from a re-analysis of the deposited data

How the results depend on the processing

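Among alternative values of single members, 261 kept their direction and side of the threshold, 21 changed sign, 18 passed the threshold only under the alternative and 3 lost it; the cause was not tested. Between genotypes Cdkn2c kept its sign under all 12 alternatives in GMP (-1.92 to -1.25) and in LSK (-0.87 to -0.68), whereas its adjusted p ran from 2.55e-04 to 0.762 in GMP and from 1.12e-06 to above 0.99 in LSK, so its call changed with the tool, the filter, the terms of the model and the libraries included. Its difference of effects (0.47 to 0.91, adjusted p 0.138 to 0.735) was called under none of 14. Cdkn1c in LSK against GMP was called under all 9 alternatives in CTRL and all 11 in KO, and Cdkn1b under all 11 in KO.

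No member whose sign changed was called in either fit. With a library left out, log2 fold changes between genotypes in GMP ran from -0.036 to 0.55 for Cdkn1a, -0.46 to 0.14 for Cdkn1b and -0.35 to 1.87 for Cdkn1c. In LSK they ran from -0.076 to 0.20 for Cdkn1a, -0.17 to 0.020 for Cdkn1b, -0.21 to 0.056 for Cdkn1c and -0.034 to 0.13 for Cdkn2d. For LSK against GMP in CTRL Cdkn1a ran from -0.38 to 0.19. For the difference of effects they ran from -0.52 to 0.049 for Cdkn1a, -0.24 to 0.35 for Cdkn1b and -1.96 to 0.24 for Cdkn1c. The covariate for reads outside genes gave -0.41 for Cdkn1c in GMP. For LSK against GMP total counts gave 0.28 in CTRL and 0.040 in KO for Cdkn1a, and 0.19 in CTRL for Cdkn2c.

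Genes called between genotypes in GMP numbered 6 with edgeR, 50 without the filter, 703 with DESeq2, 0 with limma-voom, 205 with the covariate for reads outside genes, 182 in 1 fit of all groups and 1 to 172 with a library left out (172 without KO-352). In LSK they numbered 4 (Dnmt3a, St6galnac1 and BC018473 among them), 27 without the filter, 20 with DESeq2, 0 in 1 fit of all groups and 3 to 11 with a library left out. For the difference of effects they numbered 5 (Hdc, Calml4, Naip6, Mcoln2 and Ppp1r9a), 38 without the filter, 221 with DESeq2 and 1 to 513 with a library left out (513 without KO-352). Where CTRL is left with 1 library, that library is assumed to vary like the others. No paired analysis was possible because no label number occurs in more than 1 group. Read numbers are low for Cdkn1c in GMP, where CTRL libraries of like depth held 9 and 44 reads, and for Cdkn2a and Cdkn2b in all groups; how far more depth would narrow these values was not tested.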
